A study of Homo sapiens with 12 samples.

Results

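The response of SNU449 cells to DAAD2 was examined by comparing the 3 arrays of SNU449 cells given 20 μM DAAD2 for 72 h with the 3 arrays of SNU449 cells given the vehicle, 0.1% DMSO, for the same time. These are 6 of the 12 arrays of the study, chosen by their labels, and all 54613 probe sets other than the control ones were tested. The other 6 arrays are of Hep3B cells with 2 μM DAAD2 or DMSO and enter only where the lines are set side by side. Cells grew for 24 h before the compound was added. Each array, an Affymetrix U133 Plus 2.0, read the total RNA of 1 sample.

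SNU449 is an established line from a poorly differentiated hepatocellular carcinoma, and it is 1 line, so nothing here separates the compound's effect from the traits of this line. DAAD2 is an amide that joins N-acetyl-L-cysteine to dehydroabietylamine, a diterpene amine, and the study calls SNU449 resistant to it. Markers of cell type were read as lists and singly. Above the median level of all probe sets lay 16 of 19 mesenchymal, 13 of 18 epithelial and 14 of 23 hepatocyte markers. That level is a low bar, as it is near the bottom of the scale and the brightest probe set stood for each gene. Single markers follow. VIM, an intermediate filament protein of mesenchymal cells, lay between 13.57 and 14.03 on the log2 scale on the 6 arrays, ZEB1, a repressor of epithelial genes, between 7.72 and 8.04, and CDH2, N-cadherin, between 8.02 and 8.49. CDH2 does not set the line apart, as it lay between 7.67 and 7.93 on the DMSO arrays of Hep3B. The hepatocyte protein ALB lay between 2.98 and 3.40, AFP between 3.75 and 4.70, the epithelial adhesion protein EPCAM between 3.46 and 3.87 and the leukocyte marker PTPRC between 2.96 and 3.27. The mean of a probe set over these arrays has a median of 3.81, so albumin, EPCAM and PTPRC were at or near the bottom of the scale and AFP not far above it. The table holds no detection calls, so a change from or to that level is no exact fold and may be larger than the values show. CDH1, E-cadherin, lay at 3.42, 3.60 and 3.76 in DMSO and at 4.88, 4.90 and 4.07 after DAAD2.

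The arrays of DMSO replicates correlated with each other at 0.991 to 0.994 over all probe sets and those of DAAD2 replicates at 0.984 to 0.990. Replicate 2 of DAAD2 stood closer to the controls (0.988 to 0.989) than the other DAAD2 arrays did (0.983 to 0.988). Its 3′ probe set of GAPDH was 1.99 log2 units above the 5′ one, where the other 5 arrays had 0.34 to 0.97, which is a sign of less intact RNA. In the lists of cell cycle genes below it also lay nearest to the controls, and the part of RNA quality in any result was not tested. Results that rest on it are given with and without it.

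After DAAD2, 570 probe sets were higher (1.04% of those tested) and 228 lower (0.417%) at an adjusted p under 0.05 in limma, 798 in all (1.46%). The direction rests on the sample labels; the study's own table for SNU449 carries its group headings the other way round. Higher calls were 71.4% of all calls as labelled, and would be 28.6% with the groups turned round. Without DAAD2 replicate 2 the counts were 595 and 573, of which 465 and 193 were shared with the fit of all 6 arrays. When any one of DMSO replicates 2 and 3 and DAAD2 replicate 1 was left out, they were between 93 and 115 higher and between 11 and 13 lower, without DMSO replicate 1 they were 225 and 89, and without DAAD2 replicate 3 they were 424 and 107. Taking for each gene the probe set with the highest mean, 360 of 19775 genes were higher (1.82%) and 111 lower (0.561%), 471 in all (2.38%). The 2 groups of arrays did not overlap for 16.1% of probe sets and 20.2% of genes. The limits of a 1.5-fold change with p under 0.05 before adjustment let 1798 probe sets pass (3.29%). The median log2 fold change of all genes was 0.0034, with 50.7% above 0. In such bulk RNA, fewer cells of a kind and less RNA per cell cannot be told apart.

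DNA replication was the list with the most called falls. Before S phase, the origin recognition complex, CDC6 and CDT1 load the MCM2-7 helicase onto DNA, GINS and CDC45 then join it, and ribonucleotide reductase and thymidine kinase supply nucleotides. Many of these genes are known targets of E2F factors, which RB holds back until G1 cyclins act. The promoters of 4 genes that fell and that hold E2F letters near the start are shown for that reason, as RefSeq gives them on GRCh38.p14. Each is the 120 bases before the annotated start, 5′ to 3′ on the strand of the gene, and capitals mark TTTCCCGC or TTTGGCGC on either strand. GINS2 is at chr16:85688955-85689074 on the minus strand, CDT1 at chr16:88803669-88803788, UHRF1 at chr19:4909381-4909500 and HELLS at chr10:94545668-94545787, the last 3 on the plus strand. CDT1 was chosen for display after its values had been seen.
GINS2: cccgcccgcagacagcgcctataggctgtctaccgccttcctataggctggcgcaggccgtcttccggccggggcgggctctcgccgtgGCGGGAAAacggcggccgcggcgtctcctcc
CDT1: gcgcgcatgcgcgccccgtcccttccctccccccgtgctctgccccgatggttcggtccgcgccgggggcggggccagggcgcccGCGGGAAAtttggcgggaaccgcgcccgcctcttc
UHRF1: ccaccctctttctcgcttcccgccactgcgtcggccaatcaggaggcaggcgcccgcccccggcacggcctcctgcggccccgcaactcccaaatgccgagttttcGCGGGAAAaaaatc
HELLS: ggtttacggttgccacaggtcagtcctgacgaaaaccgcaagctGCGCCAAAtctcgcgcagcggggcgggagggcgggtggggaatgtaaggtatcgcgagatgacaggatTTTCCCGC

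The marked letters begin 31 bases before the start in GINS2, 35 in CDT1, 14 in UHRF1, and 76 and 8 in HELLS. In the 250 bases before the start, 13 of 43 promoters of the replication list (30.2%) held such letters, against 390 of 15384 promoters of tested genes (2.54%). Among replication genes called lower it was 5 of 16 (31.2%), much as in the whole list. These are part of the 9 of 85 (10.6%) among all genes called lower, and of genes called higher it was 3 of 280 (1.07%). The list is made of known targets, so its share describes the list and not the response. A match is a description and no bound site.

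Of 49 replication genes measured, 18 were called lower and 0 higher, against 0.561% of all genes called lower. This list and those below were chosen with earlier results of these data known, so such contrasts are descriptions and no tests. The list's median log2 fold change was -0.67, the value of 48 genes was below 0, and in 43 the groups did not overlap, against 20.2% of all genes. Relative to the controls, the list's median was -0.73, -0.54 and -0.69 on DAAD2 replicates 1 to 3 and between -0.13 and 0.09 on the DMSO arrays. TCF19, a nuclear factor induced at the G1 to S transition, lay at 6.72, 7.02 and 7.05 in DMSO and at 5.52, 5.71 and 5.81 after DAAD2. Its change (log2 fold change -1.25, standard error 0.14, adjusted p = 0.00555) was called without any single array.

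The helicase subunit gene MCM2 lay at 8.88, 9.12 and 9.22 in DMSO and at 7.75, 8.14 and 7.78 after DAAD2 (log2 fold change -1.18, standard error 0.15, adjusted p = 0.0102). MCM4 fell by 0.94 and MCM5 by 0.92 on the log2 scale. Of the GINS complex, which travels with the helicase, GINS3 lay at 5.84, 6.14 and 6.01 in DMSO and at 4.73, 5.22 and 4.84 after DAAD2, and fell by 1.06. GINS2 lay at 8.93, 9.15 and 8.97 and then at 8.02, 8.17 and 8.12, and fell by 0.91 with the narrowest spread of the 8 largest (SD 0.115 in DMSO and 0.0761 after DAAD2, n = 3). In these 5 genes every DAAD2 array was below every DMSO array. All 5 are among the largest falls, which were picked for a call and for groups that did not overlap. Their separation was thus fixed by that choice and is no further result.

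RRM2, the small subunit of ribonucleotide reductase, lay at 10.24, 10.68 and 10.91 in DMSO and at 9.28, 9.71 and 9.28 after DAAD2 (log2 fold change -1.18, standard error 0.19, adjusted p = 0.0253). UHRF1, which guides maintenance DNA methylation, lay at 9.38, 9.62 and 9.62 and then at 8.15, 8.71 and 8.35, and fell by 1.14. HELLS, a chromatin remodeller that was not on the list, fell by 0.94, with DAAD2 replicate 2 (8.24) nearer to the DMSO arrays (8.74 to 8.83) than replicates 1 and 3 (7.62 and 7.64). TK1, thymidine kinase 1, fell by 0.91 and CDT1 by 0.84. RRM1, the large reductase subunit, had the smallest change of the 18 called genes, and fell by 0.65. MCM10, a helicase cofactor, had a log2 fold change of -1.25 in its brightest probe set that was not called (adjusted p = 0.0612), while another of its probe sets was called lower, at -1.13. Without DAAD2 replicate 2, 25 replication genes were called lower, and without DMSO replicate 1 or DAAD2 replicate 3 it was 12 or 13. If DMSO replicate 2, DMSO replicate 3 or DAAD2 replicate 1 was omitted, it was 1 gene each time. The list's median stayed between -0.74 and -0.60 when single arrays were left out.

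The lists of G1 control and mitosis had fewer calls, all of them falls. Of 29 genes of G1 control, 4 were called lower and 0 higher, against 0.561% of all genes called lower. The list's median log2 fold change was -0.41, or -0.23 with the mean over all probe sets of a gene. CCND1, cyclin D1, which with CDK4 and CDK6 starts the phosphorylation of RB, lay at 8.37, 8.97 and 9.05 in DMSO and at 7.66, 7.24 and 7.72 after DAAD2 (log2 fold change -1.26, standard error 0.20, adjusted p = 0.0252). CCNE2, a cyclin E that drives S phase entry, lay at 7.35, 7.46 and 7.51 and then at 6.15, 6.57 and 6.13, and fell by 1.16. CCNE1 fell by 0.73 and E2F7, a repressor among the E2F factors, by 0.69.

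Of 47 mitosis genes, 6 were called lower and 0 higher, against 0.561% of all genes called lower. The list's median was -0.41, with 44 below 0 in value. FOXM1, a transcription factor of G2 and M phase genes, lay at 7.52, 7.88 and 8.02 in DMSO and at 6.80, 7.07 and 6.91 after DAAD2, and fell by 0.87. The proliferation marker MKI67 lay at 7.75, 8.14 and 8.07 and then at 7.02, 7.36 and 7.03, and fell by 0.85. PRC1, a protein of the midzone spindle, fell by 0.70, TOP2A, a topoisomerase that untangles sister chromatids, fell by 0.66, TPX2, which promotes spindle assembly, by 0.60 and UBE2C, an enzyme of the anaphase-promoting complex, by 0.59. In the whole list the groups did not overlap in 26 of 47 genes, against 20.2% of all genes. The list's median on DAAD2 replicate 2 was -0.22, against -0.56 and -0.54 on replicates 1 and 3. Without replicate 2, 16 mitosis and 6 G1 genes were called lower. When any one of DMSO replicates 2 and 3 and DAAD2 replicate 1 was left out, it was 0 in both lists. Without DMSO replicate 1 it was 3 and 2, and without DAAD2 replicate 3 it was 0 and 3. Of the genes of replication-dependent and variant histones, 1 of 15 was called, H2AX, a histone variant marked at DNA breaks, which fell by 0.66.

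**Figure D1:**
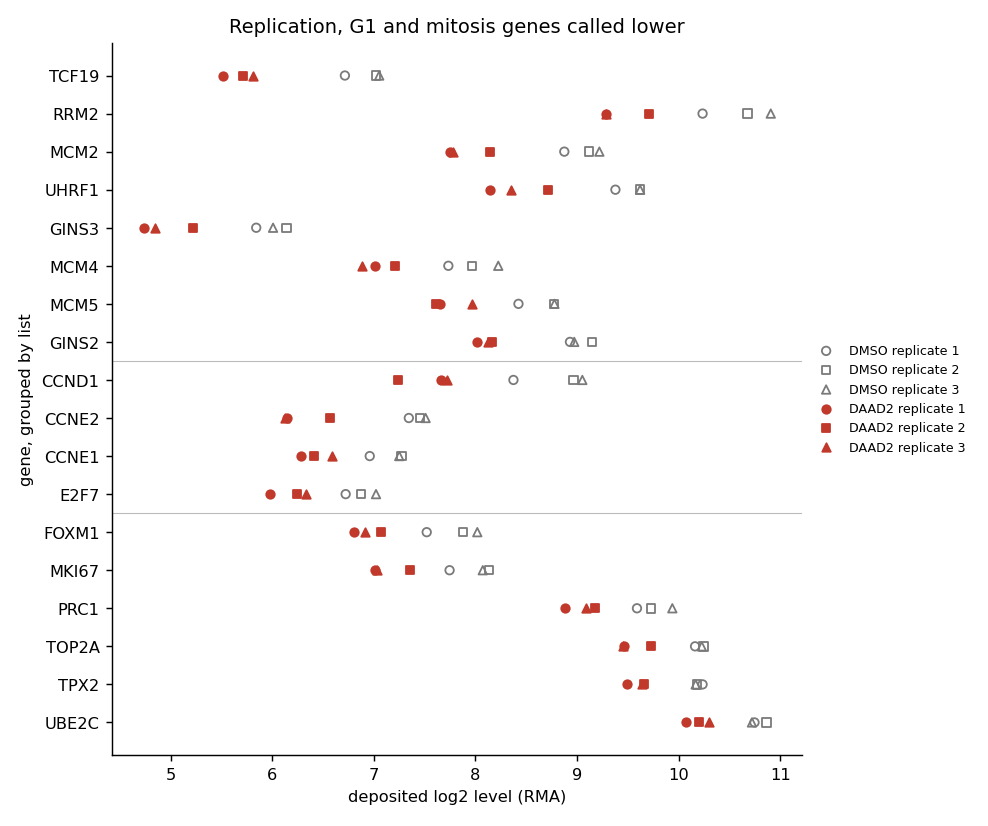
Deposited log2 level on each array (open grey, DMSO; filled red, DAAD2; the marker shape gives the replicate) for the called genes of DNA replication, G1 control and mitosis, top to bottom, at most 8 a list. In every row the 3 DAAD2 arrays lie left of the 3 DMSO arrays, and in MCM2, UHRF1, CCNE2 and TOP2A replicate 2 of DAAD2 is the nearest to the controls.

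These genes were set beside Hep3B, where limma called 0 probe sets of any gene. There 8191 probe sets had an unadjusted p under 0.05 in limma, against 6445 in SNU449. Of the 18 replication genes called in SNU449, 17 differed between the lines in the interaction term, as did all 4 of G1 control and all 6 of mitosis; over all probe sets 2.01% did. In Hep3B 46 of the 49 replication genes were above 0 in value, at a median of 0.20, and 45 of 47 mitosis genes were, at 0.28, where all genes had 48.6% above 0 and a median of -0.0073. Lists outside the cell cycle had such shares in Hep3B too, with 28 of 29 ribosome biogenesis genes above 0 (median 0.36), 25 of 27 of the proteasome (0.23), 20 of 22 of heat shock (0.36) and 24 of 26 of tubulin and CCT (0.24). The genes were chosen for their change in SNU449, which is part of that difference, and the lines also differ in dose, so line and dose cannot be told apart.

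Lysosomes break down proteins, lipids and sugars in an acid lumen, and many of their genes are known to share the CLEAR element, bound by TFEB and TFE3. Of 36 genes of lysosome and autophagy, 10 were called higher and 0 lower, against 1.82% of all genes called higher. This list too was chosen with earlier results known, so the contrast is no test. The median log2 fold change was 0.41, with 32 above 0 and 24 without overlap of the groups, where 20.2% of all genes had none. On DAAD2 replicates 1 to 3 the list's median was 0.49, 0.36 and 0.37 above the controls, against -0.06 to 0.07 on the DMSO arrays.

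NPC1, which carries cholesterol out of the lysosome, lay at 8.05, 7.96 and 7.93 in DMSO and at 9.61, 9.39 and 9.47 after DAAD2 (log2 fold change 1.51, standard error 0.11, adjusted p = 0.00121). CTSH, a cysteine protease, lay at 8.0, 7.83 and 7.71 and then at 9.10, 8.85 and 9.14, a rise of 1.18. ASAH1, acid ceramidase, lay at 10.46, 10.40 and 10.43 and then at 11.53, 11.59 and 11.32, a rise of 1.05. All 3 were called without any single array.

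Other hydrolases and their helpers followed. NEU1, the lysosomal sialidase, rose by 0.97, the protease CTSL by 0.93, GM2A, the activator of ganglioside breakdown, by 0.93 and TPP1, a peptidase, by 0.68. LAMP2, a protein of the lysosomal membrane, rose by 0.72. CTSB, cathepsin B, and PSAP, the precursor of the saposins, were the other called members, with changes of 0.68 and 0.56. Genes of the autophagy core that the list held were not called, with MAP1LC3B, GABARAPL1 and ULK1, named after their values had been seen, at adjusted p = 0.893, 0.646 and 0.956. The number of called genes was 8 without DAAD2 replicate 2, 7 without DAAD2 replicate 3 and 5 without DMSO replicate 1, and 4, 3 and 3 without DMSO replicate 2, DMSO replicate 3 and DAAD2 replicate 1. The CLEAR core, TCACGTGA, was in 5 of 25 promoters of the list (20.0%) and in 1.27% of all, but in 0 of the 6 promoters of its called genes that the table holds.

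Lipid handling gave 6 called rises among 34 genes of fatty acid and lipid metabolism, against 1.82% of all genes called higher. The list's median log2 fold change was 0.10, or 0.05 with the mean over all probe sets of a gene. It was 0.04 without DMSO replicate 1 and 0.06 without DAAD2 replicate 3. PLIN2, which coats lipid droplets, lay at 9.24, 9.2 and 9.28 in DMSO and at 10.48, 10.72 and 10.46 after DAAD2 (log2 fold change 1.31, standard error 0.11, adjusted p = 0.00231). PDK4, which turns pyruvate dehydrogenase off, lay at 4.45, 4.10 and 3.93 and then at 5.45, 4.90 and 5.54, a rise of 1.13. PPARA, a nuclear receptor that induces fatty acid oxidation, rose by 0.68 and LPIN1, a phosphatidate phosphatase, by 0.67. SCD, the stearoyl-CoA desaturase, lay at 11.18, 11.14 and 11.26 and then at 11.93, 11.89 and 11.76, a rise of 0.67. PLA1A, a phospholipase, was the sixth, with DMSO arrays at 3.73, 3.81 and 3.47, at the bottom of the scale, and DAAD2 arrays at 6.16, 5.91 and 5.85. Of 23 genes of cholesterol synthesis and transport, ACAT2, which makes acetoacetyl-CoA, fell by 0.77 and the cholesterol exporter ABCA1 rose by 0.60. If DMSO replicate 2, DMSO replicate 3 or DAAD2 replicate 1 was omitted, the lipid count was 2, and without DMSO replicate 1 it was 3. A list of 12 genes held 9 of the pregnancy-specific glycoprotein family and their relatives CEACAM1, CEACAM5 and CEACAM6, which are cell adhesion proteins. PSG3, PSG5 and PSG1 were called higher, at 2.13, 1.18 and 0.96, and the list's median was 0.73, or 0.46 with the mean over all probe sets of a gene. The PSG genes are near copies of each other, and all 3 probe sets carry the suffix for probes shared with other transcripts, so the share of each gene is uncertain.

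**Figure D2:**
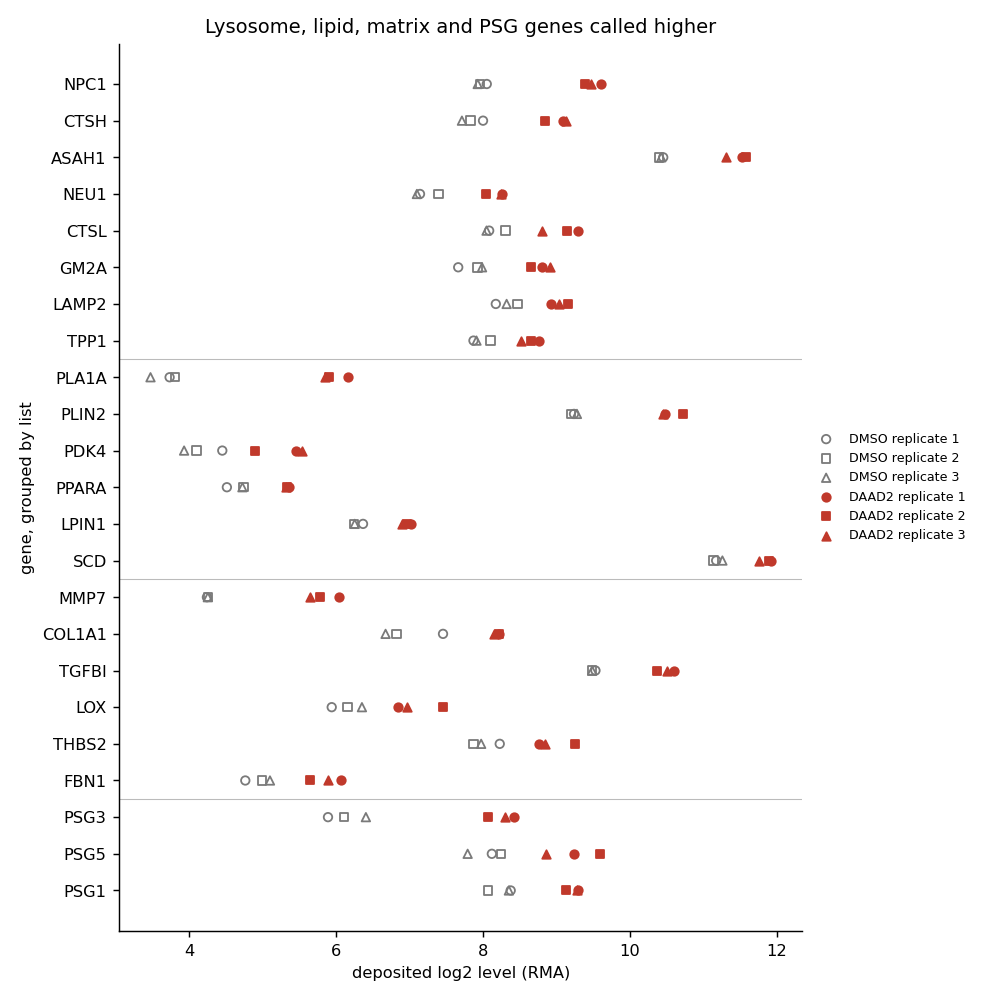
Deposited log2 level on each array (open grey, DMSO; filled red, DAAD2; the marker shape gives the replicate) for the called genes of lysosome and autophagy, fatty acid and lipid, matrix and TGF-beta, and PSG and CEACAM lists, top to bottom, at most 8 a list. Every DAAD2 array lies right of every DMSO array of the same gene, with the narrowest spread of DMSO arrays in MMP7.

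Of 32 genes of the chemokine and cytokine list 9 were called higher and 0 lower, against 1.82% of all genes called higher. The list's median log2 fold change was 0.32, or 0.17 with the mean over all probe sets of a gene. NF-κB induces many of these genes through the κB site. The promoters of 4 called genes that hold κB consensus letters near the start are shown, again as the 120 bases before the start from RefSeq on GRCh38.p14, with the letters in capitals. CXCL1 is at chr4:73869273-73869392, CXCL6 at chr4:73836558-73836677 and IL6 at chr7:22727080-22727199 on the plus strand, and CXCL2 is at chr4:74099196-74099315 on the minus strand.
CXCL1: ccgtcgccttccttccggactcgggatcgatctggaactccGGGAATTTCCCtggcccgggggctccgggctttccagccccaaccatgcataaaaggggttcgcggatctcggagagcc
CXCL2: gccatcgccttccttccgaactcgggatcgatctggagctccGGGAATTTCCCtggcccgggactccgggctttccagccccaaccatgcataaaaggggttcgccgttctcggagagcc
CXCL6: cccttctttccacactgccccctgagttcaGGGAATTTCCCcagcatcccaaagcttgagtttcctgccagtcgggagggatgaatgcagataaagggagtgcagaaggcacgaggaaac
IL6: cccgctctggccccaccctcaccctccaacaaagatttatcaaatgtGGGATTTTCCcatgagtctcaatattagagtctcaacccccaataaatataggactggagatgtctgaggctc

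The letters begin 79 bases before the start in CXCL1, 78 in CXCL2, 90 in CXCL6 and 73 in IL6. In the first 3 genes the capitals join a pair of overlapping matches, 1 on each strand. The κB consensus was in 12 of 24 promoters of the chemokine list and in 4 of the 7 promoters of its called genes. It was in 11.1% of all promoters and in 26 of the 280 promoters of all genes called higher (9.29%).

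CXCL2, a chemokine that attracts neutrophils, lay at 5.19, 5.08 and 5.19 in DMSO and at 6.96, 7.17 and 6.85 after DAAD2 (log2 fold change 1.84, standard error 0.12, adjusted p = 0.000765). CXCL6 lay at 4.2, 4.05 and 3.57 and then at 5.47, 6.32 and 5.38, a rise of 1.78 that was highest on replicate 2. CXCL8, interleukin 8, lay at 7.06, 7.07 and 7.18 and then at 8.78, 9.06 and 8.66, a rise of 1.73. CXCL1 rose by 0.86, the inflammatory cytokine IL1B by 1.32 and IL6 by 0.80. IL15, a growth factor of lymphocytes, was called higher, with DMSO arrays of 3.38 to 3.55 at the bottom of the scale and DAAD2 arrays of 4.21 to 4.49. COXFA4L3, the largest of the list at 1.94, is related to a subunit of the mitochondrial respiratory chain and is no chemokine. In Hep3B the log2 fold change of CXCL8 was 2.34 and that of CXCL6 1.48, neither called, and the interaction term did not pass for either (adjusted p = 0.749 and 0.829). Without DAAD2 replicate 2 the count of called genes was 10, and when any one of DMSO replicates 2 and 3 and DAAD2 replicate 1 was left out it was 3.

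Around NF-κB itself, 4 of 33 genes were called higher and 0 lower, against 1.82% of all genes called higher, at a median of 0.13. NFKBIZ, a nuclear co-factor that NF-κB induces, lay at 6.43, 6.37 and 6.29 in DMSO and at 8.43, 8.04 and 7.63 after DAAD2, a rise of 1.67. TNFRSF1A, the TNF receptor, rose by 0.77, IRAK2, a kinase of IL-1 signalling, by 0.72 and the adhesion protein ICAM1 by 0.67. SOD2, the mitochondrial superoxide dismutase, had the highest value of the list and was not called (1.77, adjusted p = 0.334). With the mean over all probe sets of a gene the list's median was 0.04, without single arrays it ran from 0.02 (DMSO replicate 1) to 0.18, with 0.04 without DMSO replicate 3 and 0.06 without DAAD2 replicate 2, and 1 gene was called without any array other than DAAD2 replicate 2.

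Interferon-stimulated genes were called higher in 12 of 55, against 1.82% of all genes. Their median log2 fold change was 0.26, or 0.15 with the mean over all probe sets of a gene. Beyond IFITM1 and GBP2, at 2.17 and 1.89, GBP3, a guanylate-binding GTPase, lay at 6.13, 6.44 and 5.88 in DMSO and at 7.89, 7.61 and 7.77 after DAAD2, a rise of 1.61. UBE2L6, the enzyme that conjugates ISG15, lay at 7.41, 7.39 and 7.46 and then at 8.69, 8.39 and 8.75, a rise of 1.19 called without any single array. IFIT2 and IFIT1, which bind viral RNA, rose by 1.06 and 0.99, GBP1 by 0.95 and IFITM2 by 0.84. In antigen presentation, 2 of 25 genes were called higher: PSMB9, a subunit of the immunoproteasome, by 1.19, and TAP1, which carries peptides to MHC class I, by 0.70. None of the 27 constitutive proteasome genes was called in limma, where the largest change was in PSMC3 (log2 fold change -1.0, adjusted p = 0.143). Of 15 leukocyte markers 5 were above the median level and 0 were called, and CD14 and CD2 had the largest changes of that list, 0.25 and -0.25. The interferon count was 11 without DAAD2 replicate 2, 7 without DMSO replicate 1 and 3, 3 and 4 without DMSO replicate 2, DMSO replicate 3 and DAAD2 replicate 1.

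Liver-secreted proteins of the acute phase and complement were called higher in 11 of 36 and lower in 0, against 1.82% of all genes called higher. The list's median was 0.24, or 0.15 without DAAD2 replicate 2. All 3 fibrinogen chains were among the called genes. FGG had a log2 fold change of 2.43. FGB lay at 10.48, 9.97 and 9.73 in DMSO and at 11.78, 11.44 and 11.66 after DAAD2, a rise of 1.56. FGA lay at 5.11, 4.54 and 4.69 and then at 6.45, 5.51 and 6.44, a rise of 1.35 with an adjusted p of 0.0448. Of complement, next to C3 (1.91), the protease C1S rose by 1.27 and factor B, CFB, by 1.11. The regulator CFI was called higher from DMSO arrays at the bottom of the scale, 3.53, 3.34 and 3.40, to 4.78, 4.78 and 4.62. CP, ceruloplasmin, the copper protein of plasma, lay at 4.71, 4.70 and 4.69 in DMSO and at 6.36, 6.74 and 6.53 after DAAD2, a rise of 1.85. Of the 23 hepatocyte markers 1 was called, AMBP, the precursor of alpha-1-microglobulin, at 4.90, 5.59 and 5.16 and then 6.13, 6.23 and 6.24. If DMSO replicate 2, DMSO replicate 3 or DAAD2 replicate 1 was omitted, the acute phase count was 5, and without DMSO replicate 1 it was 6.

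In NRF2 and glutathione defence, 11 of 41 genes were called higher and 0 lower, against 1.82% of all genes called higher, at a median of 0.38. NRF2 is the factor that induces such genes when electrophiles modify KEAP1. The aldo-keto reductases led: after AKR1B10 (2.96), AKR1C3 lay at 11.96, 11.66 and 11.69 in DMSO and at 13.29, 13.04 and 13.01 after DAAD2, a rise of 1.34, and AKR1C2 and AKR1C1 rose by 1.24 and 1.08. The genes AKR1C1 and AKR1C2 are near copies, with probe sets of shared probes, so their split is uncertain. UGDH, which makes UDP-glucuronate, rose by 0.76, HMOX1, heme oxygenase 1, by 0.73, TKT, transketolase, by 0.72 and the exporter ABCC4 by 0.64. The ARE core, TGACNNNGC, was in 9 of 31 promoters of the list (29.0%), in 12% of all and in 1 of the 8 promoters of its called genes. None of 9 metallothionein and zinc genes was called, the largest changes being SLC30A1 at -0.51 and MTF1 at 0.34. Without DMSO replicate 1, DMSO replicate 2, DMSO replicate 3 or DAAD2 replicate 1, 4, 3, 3 and 4 NRF2 genes were called, and without DAAD2 replicate 3 it was 6.

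Among 35 immediate early and KLF factors, 6 were called higher and 0 lower, against 1.82% of all genes called higher. The list's median was 0.27, or 0.16 with the mean over all probe sets of a gene. FOS, an AP-1 subunit, lay at 3.35, 3.48 and 3.19 in DMSO, at the bottom of the scale, and at 5.77, 5.07 and 4.84 after DAAD2. EGR1, an immediate early zinc finger factor, lay at 7.96, 7.87 and 8.29 in DMSO and at 10.08, 9.46 and 9.58 after DAAD2, a rise of 1.67. JUNB, an AP-1 subunit, lay at 6.54, 6.82 and 6.45 and then at 8.22, 8.05 and 8.06, a rise of 1.51. KLF4 rose by 1.26, ZFP36, which destabilises cytokine mRNAs, by 1.21 and JUN by 0.60. In the ERK feedback list, CCND1, already given, was lower and DUSP1, a phosphatase of MAP kinases, was higher by 0.74. The other probe sets of DUSP1 had changes of -0.03 and -0.09. Of the 6, 3 were called without DMSO replicate 3 and 4 without DMSO replicate 1, DMSO replicate 2 or DAAD2 replicate 1. All 6 differed from Hep3B in the interaction term, as did 2.01% of all probe sets. They were called for their change in SNU449, which is part of that term, and line and dose cannot be told apart.

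**Figure D3:**
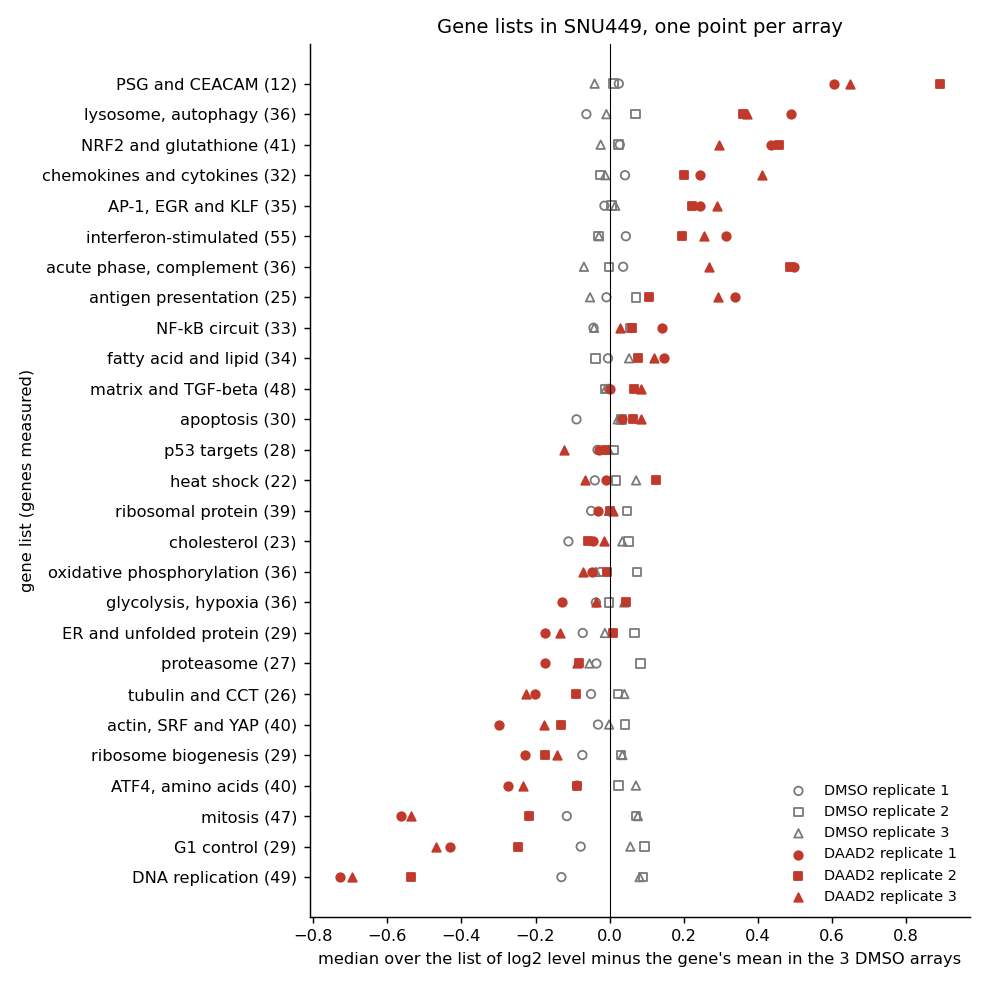
For 27 gene lists, ordered by their median log2 fold change, the median over the list of each gene's log2 level minus its mean in the 3 DMSO arrays, with a point for each of the 6 arrays (open grey, DMSO; filled red, DAAD2). DNA replication, mitosis and G1 control lie lowest and the PSG and CEACAM and lysosome lists highest, and in the lists near 0, such as ribosomal proteins, the arrays of both groups overlap.

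Amino acid and stress genes went both ways. Of 40 genes of the ATF4 and amino acid list, 3 were called higher and 3 lower, against 1.82% and 0.561% of all genes. The list's median was -0.22. SLC7A5, the large neutral amino acid transporter, lay at 9.29, 9.27 and 9.52 in DMSO and at 8.02, 8.34 and 8.19 after DAAD2 (log2 fold change -1.17, standard error 0.13, adjusted p = 0.00566). PSAT1, of serine synthesis, fell by 0.82 and GARS1, the glycyl-tRNA synthetase, by 0.57. CEBPB, a factor of the acute phase response, rose by 1.05, NUPR1, a stress-induced chromatin protein, by 1.01 and DDIT4, an inhibitor of mTORC1, by 0.76. When any one of DMSO replicates 2 and 3 and DAAD2 replicate 1 was left out, 0 of the rises and 1 of the falls passed.

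Of 29 genes of the endoplasmic reticulum, ERP27 and ERN1, the sensor IRE1, were called higher, at 1.89 and 1.08, against 1.82% of all genes called higher. ERN1 rested on a single probe set with DMSO arrays of 3.52 to 4.13, near the bottom of the scale. Its call passed in 0 of the 6 fits without an array, and its other probe sets had changes of -0.17 and -0.01. Of 22 heat shock genes 1 was called: BAG3, a co-chaperone of HSP70, at 10.31, 10.39 and 10.36 in DMSO and at 8.96, 9.08 and 9.16 after DAAD2, and fell by 1.28. Of 28 p53 target genes 1 was called, TP53INP1, at 0.89, and of 30 apoptosis genes 1, CASP2, which fell by 0.71. These shares, 3.57% and 3.33%, are near the 2.38% of all genes called in either direction.

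The actin and SRF list had 3 called falls and 0 rises among 40 genes, against 0.561% of all genes called lower, at a median of -0.18. NEXN, an actin-binding protein, lay at 7.56, 7.77 and 7.54 in DMSO and at 6.01, 6.78 and 6.21 after DAAD2. MYL9, a light chain of myosin, lay at 10.23, 10.19 and 9.97 and then at 8.87, 8.75 and 9.19, and fell by 1.19, and CCN2, a YAP target, fell by 0.74. TAGLN, an actin-binding protein of smooth muscle, had the lowest value of the list, which was not called in its brightest probe set (-1.78, adjusted p = 0.0806), while another was called lower, at -1.62. Without DAAD2 replicate 2, 6 of the list were called lower, and without any other array 0 or 1.

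In matrix and TGF-beta genes 6 of 48 were called higher and 0 lower, against 1.82% of all genes called higher. The list's median of 0.06 ran from 0.04 to 0.08 without single arrays. MMP7, matrilysin, lay at 4.24, 4.26 and 4.26 in DMSO and at 6.04, 5.78 and 5.65 after DAAD2 (log2 fold change 1.57, standard error 0.13, adjusted p = 0.00184). COL1A1, a chain of type I collagen, lay at 7.46, 6.82 and 6.68 and then at 8.22, 8.22 and 8.16, a rise of 1.21. Its other probe sets above the median level had changes of 0.87 and -0.16. TGFBI, a matrix protein induced by TGF-beta, rose by 0.99, the collagen crosslinker LOX by 0.94, THBS2 by 0.93 and FBN1, fibrillin 1, by 0.92. LOX was also the 1 mesenchymal marker called of 19. Without DMSO replicate 2 or 3 or DAAD2 replicate 1 or 3, 2 matrix genes were called, and without DMSO replicate 1 it was 3. None of 19 integrin and laminin genes was called, where ITGB4 (0.88, adjusted p = 0.0913) and ITGA6 (-0.50, adjusted p = 0.476) had the largest changes. Of 18 epithelial markers, ELF3, an epithelial transcription factor, rose by 0.83 and JUP, plakoglobin of desmosomes, fell by 0.91. The other probe sets of ELF3 had changes of 0.25 and -0.19.

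Several lists gave few calls or none, where 2.38% of all genes were called in either direction. None of 36 genes of oxidative phosphorylation passed in limma, with ATP5MC1 at -0.47 and NDUFA9 at -0.42 as the largest changes, and none of 39 ribosomal protein genes, with RPLP2 at 0.61 and RPL18 at -0.34. None of 29 ribosome biogenesis genes did, with URB2 at -0.52 and EIF5A at -1.01. EIF5A lay at 7.4 on DMSO replicate 1 and 5.93 on DAAD2 replicate 2, against 8.96 to 10.03 on the others, so its value rests on those arrays. Of 26 tubulin and chaperonin genes 1 was called, TUBB4A, a beta tubulin, higher by 0.92. Of 36 glycolysis and hypoxia genes 3 were called higher: LDHB, EPAS1, the hypoxia factor HIF-2 alpha, at 1.38, and NDRG1 at 0.79. Of 48 genes of drug metabolism and transport, ALDH1L1, CYP3A5 and ALDH2 were called higher, at 1.69, 1.67 and 0.64. In each of the glycolysis, drug metabolism and PSG and CEACAM lists 1 gene was called when DMSO replicate 2, DMSO replicate 3 or DAAD2 replicate 1 was left out. Of 9 housekeeping genes 1 was called, TFRC, the transferrin receptor, which fell by 0.71.

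Among the 30 largest rises, ranks 13 to 30 by the size of change held several genes outside these lists or not yet described. SPP1, osteopontin, a secreted ligand of integrins, lay at 8.19, 7.42 and 6.94 in DMSO and at 9.44, 9.21 and 9.38 after DAAD2 (log2 fold change 1.83, standard error 0.27, adjusted p = 0.0186). KCNT2, a potassium channel, lay at 6.64, 6.08 and 6.21 and then at 8.30, 7.91 and 7.94, a rise of 1.74. ALDH1L1, of folate metabolism, lay at 6.6, 6.54 and 6.66 and then at 8.60, 8.11 and 8.15.

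BCL6, a transcriptional repressor, lay at 6.21, 6.10 and 6.29 in DMSO and at 8.08, 7.87 and 7.33 after DAAD2, a rise of 1.56. SFRP4, a secreted Wnt antagonist, lay at 3.82, 3.93 and 3.66 and then at 5.60, 5.53 and 4.82, a change that was smallest on replicate 3 and starts near the bottom of the scale. CSGALNACT1, which starts chondroitin sulfate chains, lay at 5.72, 4.59 and 4.52 and then at 7.05, 6.43 and 6.28. Control replicate 1 stood apart in that gene, and the adjusted p of 0.0485 for its change of 1.65 passed in 1 of the 6 fits without an array. The rest of these 18 genes are described with their lists or with the probe sets.

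Ranks 13 to 30 of the falls held 6 replication genes of the list, next to HELLS and CTPS1, CTP synthase, which fell by 0.92. LHX2, a homeobox factor, lay at 6.18, 5.84 and 5.62 in DMSO and at 4.71, 4.96 and 4.61 after DAAD2 (log2 fold change -1.12, standard error 0.16, adjusted p = 0.0182). UPK1B, a tetraspanin, lay at 5.47, 5.42 and 5.36 and then at 4.43, 4.54 and 4.37, and fell by 0.97, and was the only gene of these 18 called without any single array. PDE7B, a phosphodiesterase of cyclic AMP, lay at 6.16, 6.16 and 6.31 and then at 4.90, 5.65 and 5.01, and fell by 1.03, least on replicate 2. SHISA3 fell by 1.05, EMC10, of the membrane insertion complex of the endoplasmic reticulum, by 1.01, DHRS11, a short-chain dehydrogenase, by 1.0, and RFWD3, a ubiquitin ligase of DNA repair, by 0.91. FLJ45513 fell by 0.99 and TMEM201 by 0.89.

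The array often holds more than 1 probe set for a gene, which gives a second reading within the same arrays, though not a replicate. Of 10523 genes with 2 or more probe sets, 445 had at least 1 called, and 76 of these (17.1%) had 2 or more called. In 28 genes all were called, and in 0 were probe sets called in opposite directions. Taking the called probe set with the lowest p as the first reading, 796 of the 1095 other probe sets of these genes (72.7%) had the same sign and 87 (7.95%) were called with it. Over all 10523 genes, the 2 brightest probe sets had the same sign in 59.5%, and 1.46% of all probe sets were called. The first readings had a median size of 0.87 log2 units, and the others a median of 0.15 in the same direction. The first were picked by their p, which favours large sizes. Restricted to probe sets above the median level, 547 of 697 (78.5%) had the same sign and 85 (12.2%) were called. There the 2 brightest probe sets of a gene had the same sign in 64.9% of all such genes.

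Agreement was closest in a few genes. All 3 probe sets of EGR1 were called, at log2 fold changes of 2.29, 1.67 and 1.52, as were those of CD55, a regulator that speeds the decay of complement convertases, at 1.11, 1.01 and 0.85. SAT1, the catabolic enzyme of polyamines, had 3 of 3 called, at 1.05, 1.03 and 0.78. CYP3A5, a cytochrome P450, had 3 of 4 called, at 2.36, 1.74 and 1.67, with the last at 0.17 below the median level. CP had 3 of 4 called as well, at 1.85, 1.66 and 1.08. ASAH1 had 3 of 5 called, at 1.05, 1.05 and 0.93. Further genes with 3 called were SUCLG2, a subunit of succinyl-CoA ligase, with 0.88, 0.86 and 0.83, SMIM14, a small membrane protein, with 0.99, 0.82 and 0.79, and PLD1, phospholipase D1, with 0.93, 0.74 and 0.67.

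CD44, the hyaluronan receptor, showed how far probe sets of a gene can differ: 3 of its 13 were called higher, at 0.87, 0.77 and 0.76, while the brightest one lay at 11.87, 11.91 and 12.12 in DMSO and at 11.90, 11.99 and 11.94 after DAAD2, a change of -0.02. For EGFR, the epidermal growth factor receptor, 1 of 9 was called, at 0.87, and brighter ones had changes of -0.03 and -0.23. ERBB3, another receptor of that family, had 1 of 5 called, at 1.59, with others at 1.0, -0.23 and -0.30. PHLDA1, a growth regulator, had 1 of 6 called, at 1.47, where the brightest had 0.29.

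LDHB, the heart-type subunit of lactate dehydrogenase, was called by both of its probe sets but with sizes apart. One lay at 3.83, 3.88 and 3.90 in DMSO, near the bottom of the scale, and at 7.28, 6.73 and 7.19 after DAAD2. The other, which stood for the gene above, lay at 4.58, 4.24 and 3.88 and then at 6.28, 5.62 and 5.45. Both carry the suffix for shared probes.

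Further wide gaps were in SPX, a secreted peptide, with 2.12 (from DMSO arrays of 3.47 to 3.58, at the bottom of the scale) against 0.17, and NBPF1, of a family of near copies, with -1.98 against -0.18. LTAP1 had a called log2 fold change of -1.48 in its dimmest probe set, and 0.23 in the brightest. ADGRG1, an adhesion receptor, had a called rise of 1.14 against -0.45 in value. LHX9 had 1.61 against -0.08, DSCAML1 1.33 against -0.36, METTL21A 1.27 against -0.40 and SPTBN1, a spectrin, -1.20 against 0.32. The probe sets of a gene can read different transcripts, and which was read was not tested.

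**Figure D4:**
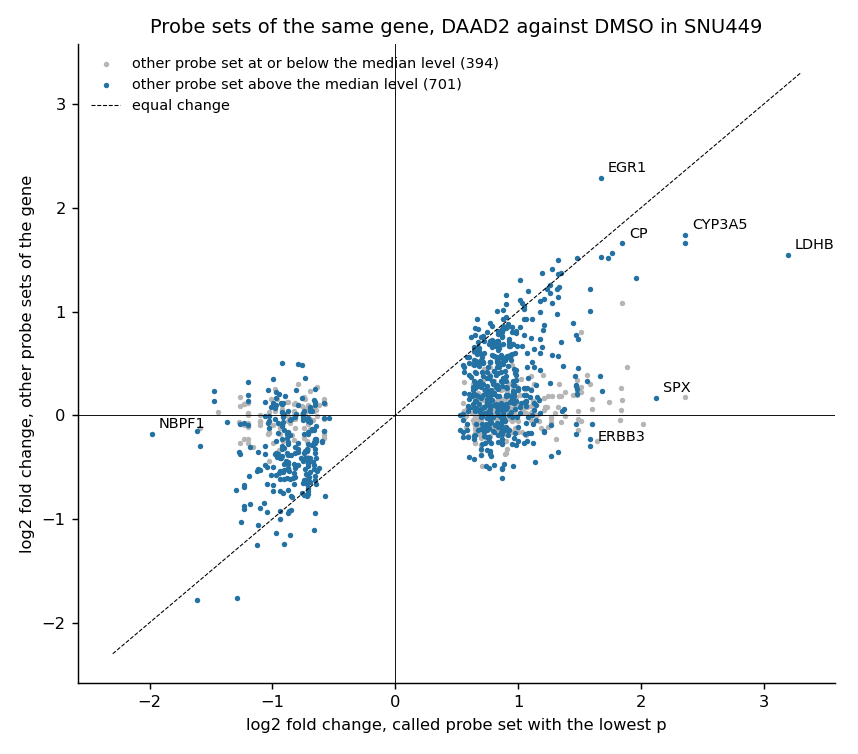
Log2 fold change of the other probe sets of a gene (vertical) against that of its called probe set with the lowest p (horizontal), a point for each of 1095 other probe sets, blue for the 701 above the median level and grey for the 394 at or below it. The dashed line marks equal change, the labelled point of CP lies close to it and that of EGR1 above it, and 72.7% of the points have the same sign on both axes.

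For the 24 genes with the 12 largest changes in each direction, the difference from Hep3B passed in the interaction term for 12 of the rises and 10 of the falls, DLK1 (adjusted p = 0.169) and SLC20A2 (adjusted p = 0.0702) being the others. In value, 6 of the 12 rises and 3 of the 12 falls had the same sign in Hep3B. Of ranks 13 to 30 the interaction term passed for 15 of 18 rises and 11 of 18 falls, the exceptions among the rises being CP, CXCL6 and CXCL8. The sign in Hep3B was the same for 7 of these 18 rises and 8 of these 18 falls. The genes of all these ranks were chosen for their change in SNU449, which is part of the interaction. Over all probe sets 2.01% passed it, and line and dose cannot be told apart. CP had a change of 1.07 in value in Hep3B and an interaction of 0.78 (adjusted p = 0.178). No probe set was called in Hep3B on its own by limma, where 8191 had an unadjusted p under 0.05.

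**Figure D5:**
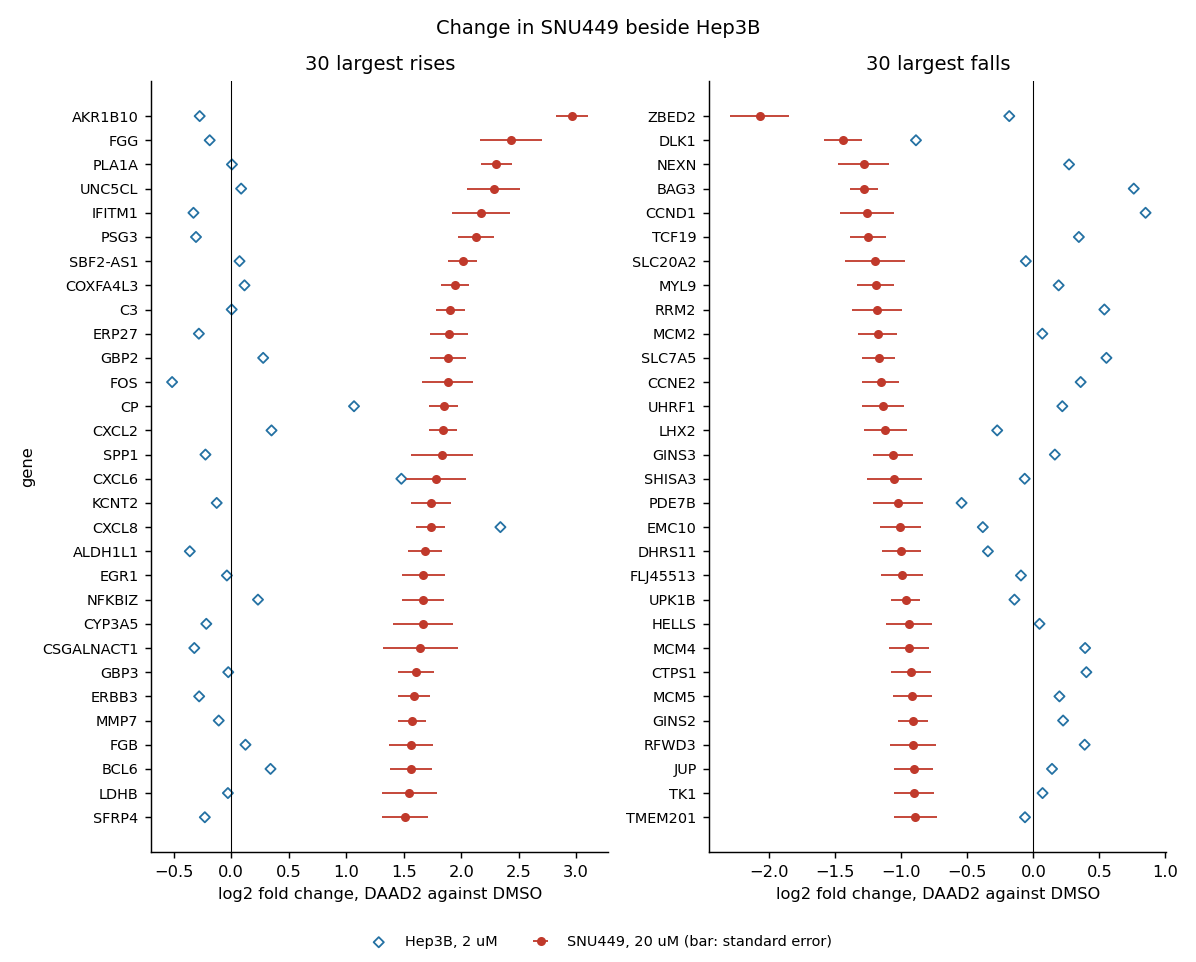
Log2 fold change after DAAD2 of the 30 genes with the largest rises (left) and the 30 with the largest falls (right) in SNU449 at 20 μM (red, bars are standard errors), with the change of the same gene in Hep3B at 2 μM (blue diamonds, no bars). CXCL8, CXCL6 and CP are the rises whose Hep3B values lie above 1, and the Hep3B value of DLK1 is the lowest among the falls.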

How the data were processed

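The deposited table holds log2 values that the authors made with RMA (per the labels, which give no version), and the study's methods name BRB Array Tools for normalization. RMA summarises the probes of a probe set after quantile normalization between arrays, so a change shared by all genes cannot be seen. All 12 columns were mapped to arrays by their labels. SNU449 arrays (3 against 3) were compared with limma 3.58.1 in R 4.3.3 (lmFit, eBayes, two-sided), with Benjamini-Hochberg adjustment over 54613 probe sets, without the 62 AFFX controls and without a filter. The difference from Hep3B was the interaction term over 12 arrays. The labels give treatment in triplicate without saying whether the cultures were independent, so the p-values reflect array-to-array spread that could be technical.

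Of the probe sets 41091 carry 1 gene symbol in the platform annotation, 1801 several and 11721 none; only the first were named. The brightest over 12 arrays stood for a gene. Named genes were the 30 largest changes in each direction that were called with no overlap, up to 8 called members of each of 37 gene lists (or the 2 largest where none was called), and genes by probe set agreement. Members and lists were chosen with earlier results of these data known. Motifs (8) were searched in RefSeq promoters (15384). The fit was tested on simulated data. Tables and plots used Python 3.11.15 with pandas 2.3.3, numpy 2.4.6 and matplotlib 3.10.9.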

Additional observations from a re-analysis of the deposited data

Results flagged for a closer look

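For 22 of the 24 genes with the 12 largest changes in each direction, the DAAD2 change differed between SNU449 and Hep3B in the interaction term of limma. The difference is SNU449 minus Hep3B in log2 units. Among the rises it was 3.23 for AKR1B10, 2.62 for FGG, 2.30 for PLA1A, 2.20 for UNC5CL, 2.50 for IFITM1, 2.43 for PSG3, 1.94 for SBF2-AS1, 1.83 for COXFA4L3, 1.90 for C3, 2.17 for ERP27, 1.61 for GBP2 and 2.40 for FOS. Among the falls it was -1.89 for ZBED2, -1.56 for NEXN, -2.05 for BAG3, -2.11 for CCND1, -1.59 for TCF19, -1.39 for MYL9, -1.72 for RRM2, -1.25 for MCM2, -1.73 for SLC7A5 and -1.51 for CCNE2. The DMSO arrays of PLA1A and FOS lay at the bottom of the scale, so their values are no exact sizes. These genes were chosen for their change in SNU449, which is part of the difference. The interaction term passed for 2.01% of all probe sets. SNU449 received 20 μM and Hep3B 2 μM, so line and dose cannot be told apart.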

How the results depend on the processing

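Both counts, 570 probe sets higher and 228 lower, moved by less than 1.5 times with a filter on dim probe sets, quantile normalization, cyclic loess, and an intensity trend with robust moderation. Centring each array on its median gave 510 higher and 132 lower, which moved the share of higher calls from 71.4% to 79.4% as labelled. With all 12 arrays in one fit 1163 were higher and 687 lower, and the limits of a 1.5-fold change with p under 0.05 before adjustment gave 1006 and 792. Counted by gene it was 360 and 111. With no moderation of the variance 0 were higher and 0 lower in limma, with 5137 at an unadjusted p under 0.05 (6445 with moderation). When single arrays were left out, the counts ran from 93 to 595 higher and from 11 to 573 lower. Replicate numbers did not pair the arrays: the correlations of same-numbered deviations were -0.01, -0.08 and -0.06, and with the replicate block 204 were higher and 58 lower. The share of other probe sets with the same sign, 72.7%, was 78.5% for probe sets above the median level.

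Of 137 called named genes, 0 changed sign under any of these settings, and between 0 (no moderation) and 137 (dim filter) kept the call. They were picked for a call, and in part for groups that did not overlap, so a kept sign was largely fixed by that choice. The log2 fold change of EIF5A, not called at -1.01, was at 0.015 without DAAD2 replicate 2, and ran from -1.80 to 0.015 when single arrays were left out. Medians of 6 lists changed sign, all of them at most 0.043 from 0 in the fit of 6 arrays. With 3 arrays a group, small changes pass only where the spread is small, and the causes of these differences between settings were not tested.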
